A study of Homo sapiens with 6 samples.

Results

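The transcripts of 10 chromatin-modifying enzymes were examined in HSC-4 cells treated with a Notch pathway inhibitor. They are the histone acetyltransferase genes *CREBBP*, *EP300*, *KAT2A*, *KAT2B* and *KAT6A*, the histone H3 lysine 4 methyltransferase genes *KMT2A*, *KMT2C* and *KMT2D*, and 2 genes whose products deposit repressive marks, *EZH2* and *DNMT1*. They were chosen by symbol among the 58884 genes of the count tables, and all 10 were present and passed the filter on low counts that left 15001 genes. HSC-4 is an established line from a human oral squamous cell carcinoma. DAPT blocks γ-secretase, the protease that frees the intracellular domain of Notch receptors. The 3 DAPT libraries came from HSC-4 cells given 50 µM DAPT for 24 h, and the 3 control libraries came from HSC-4 cells cultured in the same medium without it. By the study's methods these controls received DMSO as vehicle, yet their count columns are named with the unexplained letters GM. Should GM mean untreated growth medium, effects of DAPT and of its vehicle cannot be told apart. All libraries come from 1 cell line, and the labels do not say that replicates were separate cultures, so the p-values measure only the spread between these libraries.

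CBP and p300, the products of *CREBBP* and *EP300*, are closely related coactivators that acetylate histones at enhancers and promoters. The nuclear Notch complex recruits them through Mastermind-like proteins when Notch is active. The KMT2 enzymes methylate lysine 4 of histone H3 at promoters and enhancers. EZH2 is the catalytic subunit of Polycomb repressive complex PRC2, which methylates lysine 27 of histone H3, and DNMT1 copies DNA methylation onto newly replicated strands. Both are usually abundant in dividing cells.

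Total counts ranged from 12276313 to 16317672 per library, and 3 reads corresponded to 0.184 to 0.244 CPM, the unit of read counts scaled to a common library size. The CPM values below use the TMM scaling of edgeR. The summed level of 8 squamous epithelium markers was 5049 to 5273 CPM in control and 3140 to 3313 CPM in DAPT libraries. Of the 8, 6 had a lower and 2 a higher level after DAPT in the fit described below (median log2 fold change -0.73). In DAPT replicate 2, 1 of the 8 had 0 reads, and *KRT14*, which has near-identical relatives, was at 3.54 CPM or less in all 6 libraries. Whether *KRT14* is little expressed or its reads were lost to those relatives was not tested. Control replicate 1 stood apart from the other libraries. The summed level of 8 markers of fibroblasts, muscle, endothelium and leukocytes was 548 CPM there and 85.6 to 92.2 CPM elsewhere. Among these, *COL1A1*, *COL1A2* and *DCN* together gave 509 CPM in that library and 48.6 to 56.0 CPM in the others. Outside that library this sum was mostly *COL1A1*. *COL1A2* was at 215 CPM in that library and at 2.02 CPM or less in the others, and *DCN* was at 20.5 CPM against 0.166 CPM or less. The leukocyte marker *PTPRC* and the endothelial marker *PECAM1* were at or near 0 in all 6. In every library the sum of the 8 markers exceeded that of *COL1A1*, *COL1A2* and *DCN*. That excess lay mostly in *CD68*, *VWF* or *ACTA2*, so not all of the remaining markers were near 0. The results are therefore also given without control replicate 1. DAPT replicate 1 also differed from its group. Its chi-square of read counts per degree of freedom was 4.09 against DAPT replicate 2 and 3.89 against DAPT replicate 3. The value between DAPT replicates 2 and 3 was 1.80. Control replicate 1 gave 5.71 and 5.57 against control replicates 2 and 3, which gave 1.58 against each other. The Notch targets moved with the label of the treatment. *HES1* was at 42.5, 50.3 and 48.2 CPM in control and 27.9, 27.2 and 27.3 CPM in DAPT libraries. *HEY1* ranged from 32.6 to 36.0 CPM in control and from 8.04 to 9.61 CPM in DAPT libraries, and *HES2* from 29.1 to 30.0 and from 4.46 to 7.02 CPM.

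The enzyme transcripts differed between DAPT and control libraries in both directions and by small amounts. In the quasi-likelihood test of edgeR, with p-values adjusted by Benjamini-Hochberg over all tested genes, *CREBBP*, *EP300*, *KAT2B* and *KMT2D* were upregulated, *KAT2A*, *EZH2* and *DNMT1* were downregulated, and *KAT6A*, *KMT2A* and *KMT2C* did not pass an adjusted p of 0.05. That is 7 of 10 genes called, where 35.2% of all tested genes were called, 17.2% higher and 18.0% lower. Leaving out control replicate 1, 7 of the 10 were again called, with *KAT6A* in place of *KAT2B*, and 37.1% of all tested genes were called. Among the 7755 genes expressed at least as strongly as the lowest of the 10, 44.2% were called. That lowest gene was *KAT2B*, at percentile 48.3 of mean CPM among tested genes, while the others lay at percentiles 63.5 to 92.3. The share called among genes as strongly expressed as those others was not computed. The control and DAPT values of the 7 genes called with all libraries did not overlap, as was the case for 46.3% of all tested genes. The log2 fold changes ran from -0.27 to 0.48, with a median of 0.11 against 0.01 over all tested genes. None of the 10 changed 2-fold. Over all genes, 2574 were called higher and 2707 lower, a split that became 3445 and 2156 when the libraries were scaled by their size alone. With that scaling, the 7 calls kept their directions and *KAT6A* was also called higher.

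**Figure D1:**
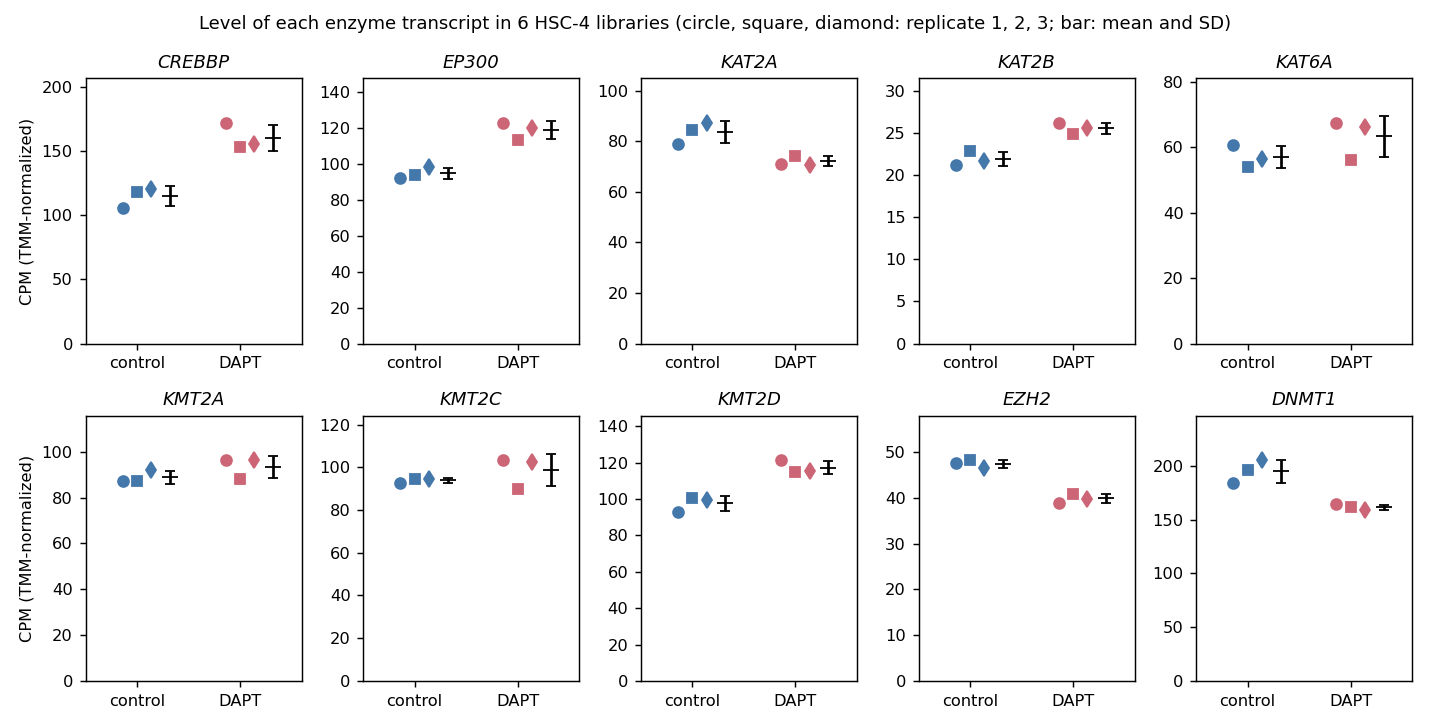
Level of each of the 10 enzyme transcripts, in TMM-normalized CPM (y axes from 0), in the 3 control and 3 DAPT libraries (blue and red; circle, square and diamond for replicates 1, 2 and 3), with the mean and SD beside each group. The control and DAPT points overlap for *KAT6A*, *KMT2A* and *KMT2C* and are separate for the other 7 genes.

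*CREBBP* (chromosome 16, 3725054 to 3880726, minus strand, GRCh38) encodes CBP and showed the largest change of the 10. It was at 106, 118 and 121 CPM in the control libraries and at 172, 153 and 156 CPM in the DAPT libraries. Every DAPT library lay above every control library, and the lowest control value was that of replicate 1. The mean rose from 115 ± 7.72 to 161 ± 10.4 CPM (SD, n = 3), which is 39.9% in the fit (log2 fold change 0.48, SE 0.06, edgeR adjusted p = 1.46e-06). Without control replicate 1 the log2 fold change was 0.43 (edgeR adjusted p = 4.78e-07). In bulk RNA, a change in all cells and a change in the share of cells that hold a transcript cannot be told apart, here and for every gene below.

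*EP300* (chromosome 22, 41092592 to 41180077, plus strand) encodes p300, the close relative of CBP. Control libraries gave 92.2, 93.8 and 98.2 CPM, and DAPT libraries gave 123, 113 and 120 CPM. The groups were again separate, and DAPT replicate 2 was the lowest of the treated libraries, as it was for *CREBBP*. The increase was 25.4% (log2 fold change 0.33, SE 0.05, edgeR adjusted p = 5.81e-05), and it was 0.31 on the log2 scale without control replicate 1.

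*KAT2A* and *KAT2B* encode GCN5 and PCAF, alternative catalytic subunits of the SAGA and ATAC coactivator complexes, and they changed in opposite directions. *KAT2A* (chromosome 17, 42113111 to 42121367, minus strand) was at 79.0, 84.6 and 87.4 CPM in control and 71.0, 74.3 and 70.8 CPM in DAPT libraries. The 3 DAPT values lay close together below the lowest control value, which was that of replicate 1. The level dropped by 13.8% in the fit (log2 fold change -0.21, SE 0.06, edgeR adjusted p = 0.00496), and without control replicate 1 the log2 fold change was -0.25. Of the exonic bases of *KAT2A*, 10.7% are shared with the gene ENSG00000267261 on the same strand, and reads there were not counted for either gene.

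*KAT2B* (chromosome 3, 20040446 to 20154404, plus strand) was the least abundant of the 10 by reads, with 262 to 404 reads per library. Control libraries were at 21.2, 22.8 and 21.7 CPM and DAPT libraries at 26.2, 24.9 and 25.6 CPM, so the groups did not overlap. The log2 fold change was 0.22 (SE 0.08, edgeR adjusted p = 0.0256). This call depended on individual libraries and on the test. The edgeR adjusted p was 0.0623 without control replicate 1, 0.075 without control replicate 3, 0.0739 without DAPT replicate 1 and 0.0589 without DAPT replicate 3, and in DESeq2 it was 0.135. Its log2 fold change stayed between 0.20 and 0.27 in all alternatives run.

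*KAT6A* (chromosome 8, 41929479 to 42051994, minus strand) encodes MOZ, an acetyltransferase of histone H3. It was at 60.5, 54.0 and 56.4 CPM in control and 67.5, 56.2 and 66.2 CPM in DAPT libraries. DAPT replicate 2 fell within the control range, and control replicate 1 was the highest of the controls. The log2 fold change of 0.15 (SE 0.07) did not pass the edgeR test after adjustment (adjusted p = 0.102). Its unadjusted 95% interval ran from 0.0043 to 0.30 and so lay just above 0. An increase of up to 0.30 on the log2 scale is within the error. The gene was called higher without control replicate 1 (log2 fold change 0.20, edgeR adjusted p = 0.0262) and without DAPT replicate 2 (0.23, edgeR adjusted p = 0.0263).

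Of the 3 H3 lysine 4 methyltransferases, *KMT2D* passed the test. *KMT2D* (chromosome 12, 49018975 to 49059774, minus strand) encodes MLL4, which acts mainly at enhancers. Its control values were 92.9, 101 and 99.1 CPM and its DAPT values 121, 115 and 115 CPM, with no overlap. The transcript rose by 20.2% (log2 fold change 0.27, SE 0.05, edgeR adjusted p = 0.00049), and by 0.23 on the log2 scale without control replicate 1.

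*KMT2C* (chromosome 7, 152134922 to 152436005, minus strand) encodes MLL3, the partner enzyme of MLL4 in function. The control libraries were tightly grouped at 92.7, 94.5 and 94.6 CPM, whereas the DAPT libraries were at 103, 89.9 and 102 CPM. DAPT replicate 2 lay below every control library, and the other two DAPT libraries lay above them. The log2 fold change was 0.07 (SE 0.06, edgeR adjusted p = 0.367), with an unadjusted 95% interval from -0.05 to 0.19. Parts of *KMT2C* have near-identical copies elsewhere in the genome, and reads that map to several places were not counted, so its level is uncertain.

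*KMT2A* (chromosome 11, 118436464 to 118526832, plus strand) encodes MLL1, a methyltransferase of promoters. It was at 87.4, 87.2 and 92.2 CPM in control and 96.2, 88.0 and 96.4 CPM in DAPT libraries. DAPT replicate 2 lay inside the control range, and the log2 fold change of 0.07 (SE 0.06) did not pass the edgeR test (adjusted p = 0.319). The unadjusted 95% interval ran from -0.04 to 0.19. The gene ENSG00000285827 shares 17.9% of the exonic bases of *KMT2A* on the same strand, and reads from them were left out of the counts. DAPT replicate 2 was the lowest treated library for *KAT6A*, *KMT2A* and *KMT2C*, inside the control range for *KAT6A* and *KMT2A* and below it for *KMT2C*.

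*EZH2* (chromosome 7, 148807383 to 148884321, minus strand) was lower after DAPT. It was at 47.6, 48.3 and 46.5 CPM in the control libraries and at 38.8, 41.0 and 39.9 CPM in the DAPT libraries, and both groups were narrow and separate. The level dropped by 16.0% in the fit (log2 fold change -0.25, SE 0.07, edgeR adjusted p = 0.00517). Leaving out control replicate 1 left the log2 fold change at -0.25.

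*DNMT1* (chromosome 19, 10133345 to 10231286, minus strand) had the most reads of the 10 in most libraries, with 184, 196 and 205 CPM in control and 164, 161 and 159 CPM in DAPT libraries. The DAPT values were nearly alike, while the controls spread more and replicate 1 was the lowest of them. The groups did not overlap, and the log2 fold change was -0.27 (SE 0.05, edgeR adjusted p = 0.000304), a decrease of 17.1%. It was -0.31 without control replicate 1. *S1PR2* shares 0.847% of its exonic bases on the same strand.

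*EZH2* and *DNMT1* fell together with transcripts of DNA replication. The summed level of 43 S phase genes was 3899 to 3957 CPM in the control libraries and 2719 to 2781 CPM in the DAPT libraries, and 38 of the 43 were called lower and 0 higher (median log2 fold change -0.50), among them *CDCA7*, *MCM7* and *MCM5* at -0.81, -0.77 and -0.75. *PCNA*, the sliding clamp of DNA polymerases, which also binds DNMT1, went from 284 to 296 CPM in control to 174 to 200 CPM in DAPT libraries (log2 fold change -0.61, SE 0.05, edgeR adjusted p = 1.2e-08). On the log2 scale the changes of *EZH2* and *DNMT1* were smaller than the S phase median. The part of the S phase change in the lower *EZH2* and *DNMT1* was not tested.

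Sequences around the start sites of some of these genes are shown, among them *EZH2* and *DNMT1*, whose promoters matched E2F-type letters. E2F factors are regulators of S phase genes, and their part in the lower *EZH2* and *DNMT1* was not tested. RefSeq promoters (GRCh38.p14, 250 bases before to 50 after each start) were at hand for 9 of the 10 genes, all but *KAT6A*, 11 promoters in all. The letters TTTCCCGC, TTTCGCGC, TTTGCCGC and TTTGGCGC were searched on both strands as E2F-type sites, and GTGGGAA as the core of sites of RBPJ, the DNA-binding factor of Notch signaling. The letters and the windows were chosen after the expression values were seen. Each stretch of 120 bases is written 5′ to 3′ on the strand of the gene, with matched letters in capitals. The order is *EZH2* at chr7:148884283-148884402 (minus), *DNMT1* at chr19:10194948-10195067 (minus), *KMT2D* at chr12:49060815-49060934 (minus), *CREBBP* at chr16:3880714-3880833 (minus) and *EP300* at chr22:41092472-41092591 (plus).
EZH2: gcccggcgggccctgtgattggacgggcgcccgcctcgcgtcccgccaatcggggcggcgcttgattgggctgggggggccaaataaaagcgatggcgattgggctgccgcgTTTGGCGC
DNMT1: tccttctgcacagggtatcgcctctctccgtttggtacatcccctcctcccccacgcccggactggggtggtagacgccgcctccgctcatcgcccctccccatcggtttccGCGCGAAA
KMT2D: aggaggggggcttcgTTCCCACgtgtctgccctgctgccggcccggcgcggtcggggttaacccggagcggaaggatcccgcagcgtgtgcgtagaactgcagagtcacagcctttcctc
CREBBP: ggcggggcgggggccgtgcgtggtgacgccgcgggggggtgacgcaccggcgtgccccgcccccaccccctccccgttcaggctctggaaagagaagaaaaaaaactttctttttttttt
EP300: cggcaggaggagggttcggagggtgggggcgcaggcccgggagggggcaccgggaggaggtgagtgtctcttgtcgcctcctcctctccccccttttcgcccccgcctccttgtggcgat

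The E2F-type letters lay at the start site of *EZH2* and *DNMT1*. In *EZH2* they ran from base 1 to 8, counting the start base as 0, and in *DNMT1* from base -2 to 5 on the opposite strand. Neither the other RefSeq promoter of *EZH2* nor that of *KAT2A*, the remaining gene that fell, held them, and the other promoters searched had no match. *KAT6A* was not searched. They were present in 3.31% of the 35116 RefSeq promoters of the same length. *KMT2D* held the RBPJ core letters, on the opposite strand, from base -125 to -119 of a RefSeq start that lies outside the interval given for the gene in the count tables. Those letters occurred in 6.25% of all promoters and in none of the other promoters searched for the 9 genes. The 11 promoters had a GC content of 62.0% to 88.7% and held 18 to 56 CpG dinucleotides, where the medians of all promoters were 58.7% and 14. The 3.31% and 6.25% are shares over all promoters, and shares over promoters of like composition were not computed. A match describes the letters only, and no binding was measured.

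Per kilobase of annotated exon, the enzymes differed widely in the control libraries. On the RPKM scale, which divides CPM by the kilobases of exon, *KAT2A* and *DNMT1* were highest, at 22.2 ± 1.13 and 19.9 ± 1.11 (SD, n = 3), and their values overlapped. *EZH2* followed at 10.5, *EP300* at 8.10 and *CREBBP* at 7.42 RPKM. *KMT2D* and *KMT2C* overlapped at 4.76 and 4.67 RPKM, and *KAT2B*, *KMT2A* and *KAT6A* were lowest at 4.20, 2.84 and 2.36 RPKM. All other neighbours in this order did not overlap. The KMT2 genes and *KAT6A*, which gave many reads, thus ranked low per annotated exonic base. That length joins the exons of all annotated transcripts of a gene, so it can exceed the length of the transcripts made. For *KMT2A* and *KAT2A* it also holds the 17.9% and 10.7% of bases whose reads were left out. The order by length of the transcripts made was not tested. After DAPT, *CREBBP* was at 10.4 ± 0.670 and *EP300* at 10.2 ± 0.426 RPKM.

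Related enzymes were then compared within each library, where the ratio of reads does not depend on scaling between libraries. *CREBBP* reads per *EP300* read were 1.15, 1.26 and 1.23 in control and 1.40, 1.36 and 1.30 in DAPT libraries. The ratio was higher in every DAPT library, with a mean difference of 0.16 on the log2 scale. The ratio of *KAT2A* to *KAT2B* changed most, from 3.73, 3.71 and 4.03 to 2.71, 2.99 and 2.77, a difference of -0.44. *KMT2C* to *KMT2D* went from 0.998, 0.940 and 0.954 to 0.852, 0.783 and 0.889, a difference of -0.20, so that the share of *KMT2D* was larger in each treated library. These 3 ratios did not overlap between the groups, and each gave an exact two-sided permutation p of 0.1, the smallest that 3 against 3 libraries allow.

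Ratios to paralogs outside the 10 were added after the data were seen. *EZH2* to *EZH1*, the gene of the alternative PRC2 methyltransferase, was 1.54, 1.76 and 1.74 in control and 1.28, 1.24 and 1.31 in DAPT libraries. It was lower in all treated libraries by 0.39 on the log2 scale (exact permutation p = 0.1). *KAT6A* to *KAT6B* overlapped between the groups (difference -0.10, exact permutation p = 0.5). Over the 5 ratios the Benjamini-Hochberg adjusted exact permutation p was 0.125 for the 4 that did not overlap, so none can pass 0.05 in this design. Without control replicate 1 the differences of these 4 were 0.12, -0.46, -0.17 and -0.46 in the order given.

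**Figure D2:**
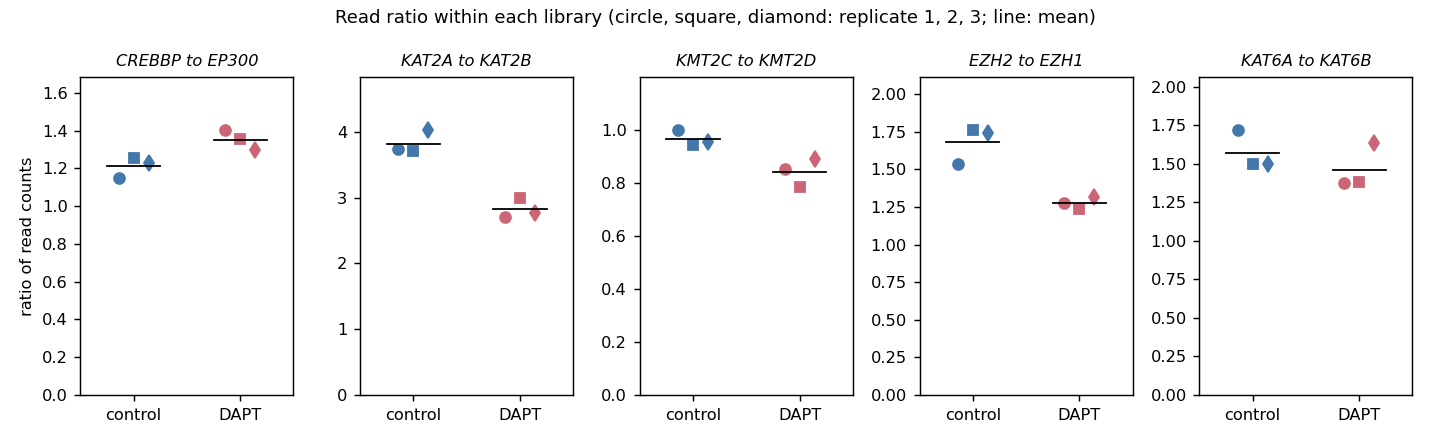
Ratio of the read counts of 5 pairs of related enzymes within each library (y axes from 0), for 3 control and 3 DAPT libraries (circle, square and diamond for replicates 1, 2 and 3), with a line at each group's mean. The groups are separate for the first 4 pairs and overlap for *KAT6A* to *KAT6B*.

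Because several of these transcripts are very long, all tested genes were divided by exonic length into 10 bins of about equal size. Genes with longer exons had higher log2 fold changes. In bin 1, with the shortest exons, its median was -0.06, and 5.99% of genes were called higher and 16.6% lower. In bin 10, with the longest, the median was 0.06, with 27.9% higher and 13.7% lower. Bins of genomic span gave medians of -0.04 and 0.04 at the ends.

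*CREBBP*, *EP300*, *KAT6A*, *KMT2A*, *KMT2C* and *KMT2D*, with 11692 to 31305 exonic bases, all fell in bin 10. Within it, 4.87% of the 1499 genes had a log2 fold change at least as high as that of *CREBBP*, 11.3% as high as *EP300* and 16.6% as high as *KMT2D*. *KAT6A* was matched or exceeded by 35.2% of the genes in this bin, and *KMT2A* and *KMT2C* by 48.4% and 49.1%, which places both near its median. *DNMT1*, with 9796 exonic bases, lay in bin 9, where the median was 0.05 and 12.9% of genes were as low. *KAT2B*, *EZH2* and *KAT2A*, with 5211, 4522 and 3775 exonic bases, lay in bins 6, 5 and 4, where 19.6% of genes were as high as *KAT2B*, 17.8% as low as *EZH2* and 27.1% as low as *KAT2A*.

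**Figure D3:**
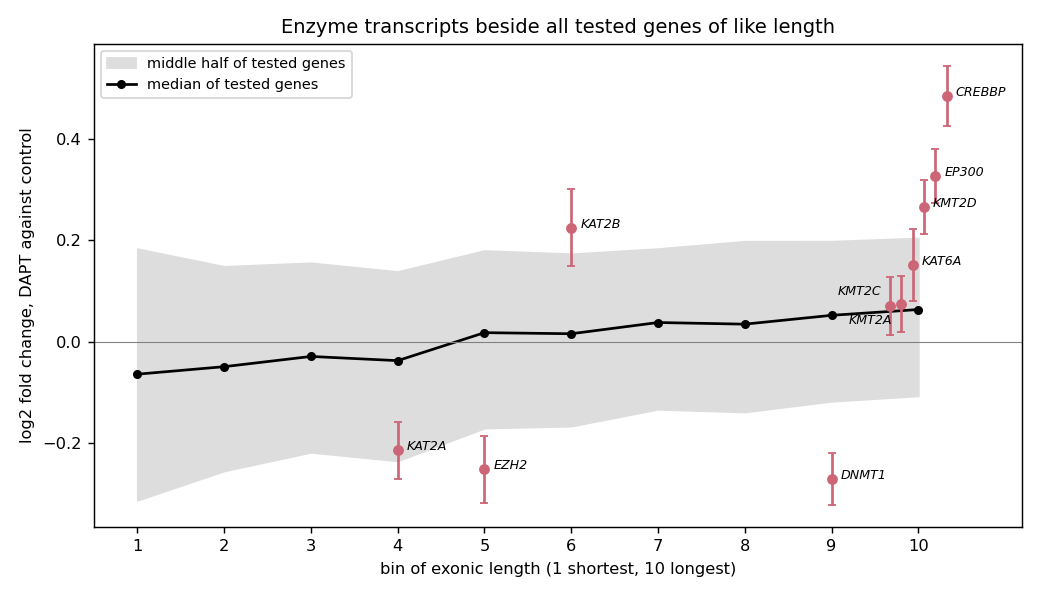
Log2 fold change (DAPT against control, y axis) of the 10 enzymes with standard errors, placed by bin of exonic length (x axis, 1 shortest), beside the median of all tested genes (black) and the band from their lower to upper quartile (grey). *CREBBP*, *EP300* and *KMT2D* lie above the band of bin 10, and *KMT2A* and *KMT2C* lie near its median. *KAT2B* lies above the band of bin 6, and *EZH2* and *DNMT1* lie below the bands of theirs.

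When a smooth trend with exonic length was removed from each library, the same 7 genes were called. The log2 fold change was then 0.46 for *CREBBP*, 0.30 for *EP300*, 0.23 for *KMT2D*, 0.23 for *KAT2B*, -0.17 for *KAT2A*, -0.23 for *EZH2* and -0.29 for *DNMT1*. *KAT6A* was at 0.12, *KMT2A* at 0.03 and *KMT2C* at 0.04. The value of each of the 10 genes moved by 0.05 or less. With exonic length and GC content removed together, the 7 calls held, *KMT2D* was at 0.30 and *KAT2A* at -0.13 (edgeR adjusted p = 0.0338). *KAT2A* was just outside the threshold when a replicate term was added to that fit (edgeR adjusted p = 0.0503).

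**Figure D4:**
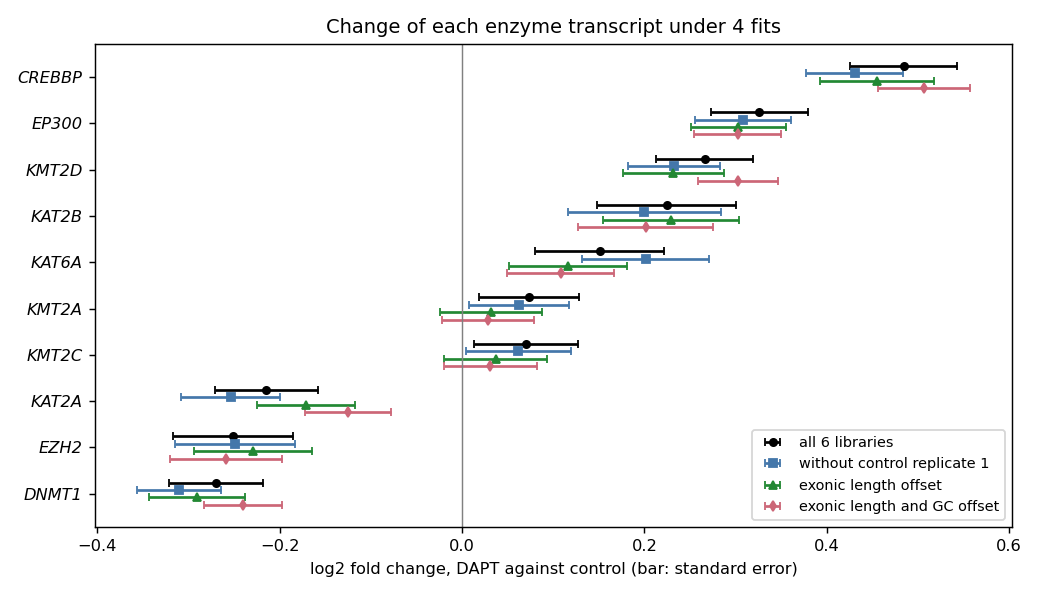
Log2 fold change of each enzyme transcript (x axis, bars are standard errors) with all 6 libraries, without control replicate 1, with exonic length removed and with exonic length and GC content removed. The direction of each gene is shared by the 4 fits, and *KAT2A* lies closest to 0 with length and GC content removed.

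Other genes of the same complexes and marks were examined from lists. Of 89 such genes, each counted once, 88 were tested, and 23 were called higher and 9 lower, with a median log2 fold change of 0.05. Over all tested genes 17.2% were called higher and 18.0% lower, with a median of 0.01, which is the background for the counts of each list below. The counts without control replicate 1 were 24 and 10. Where a count of 0 is given for a list in 1 direction, DESeq2 and limma-voom gave 0 as well, and so did edgeR at an unadjusted p under 0.05, except for 1 lower KMT2 partner and for the 2 genes named with *KMT2B* below.

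Among 8 other histone acetyltransferases, 2 were called higher and 1 lower. *NCOA1*, a nuclear receptor coactivator, went from 39.8 to 42.0 CPM in control to 58.4 to 64.6 CPM in DAPT libraries (log2 fold change 0.61, SE 0.06, edgeR adjusted p = 2.16e-07). *KAT6B*, the paralog of *KAT6A*, had a log2 fold change of 0.26 (edgeR adjusted p = 0.0135), which was lost without DAPT replicate 1 (edgeR adjusted p = 0.109). *HAT1*, which acetylates newly made histone H4, was lower at -0.22. Of the 5 partners of *KAT6A* in the MOZ complex, *BRPF3*, a scaffold subunit, was higher with 55.9 to 59.6 CPM in control and 91.3 to 106 CPM in DAPT libraries (log2 fold change 0.75, SE 0.06, edgeR adjusted p = 5.48e-09), *MEAF6* was higher at 0.30, and 0 were lower.

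The partners of *KAT2A* and *KAT2B* in SAGA and ATAC number 20 in the list, of which 19 were tested, 6 were called higher and 1 lower (median 0.05). *ATXN7*, of the deubiquitinase module of SAGA, was at 0.497 CPM or less and was not tested. *TADA2B*, an adaptor of SAGA, went from 16.2 to 19.1 CPM to 23.3 to 25.5 CPM (log2 fold change 0.50, SE 0.09, edgeR adjusted p = 9.47e-05). *SUPT7L* of SAGA and *ZZZ3* of ATAC were higher at 0.33 and 0.30, and *YEATS2* of ATAC was lower at -0.20. Without control replicate 1, 7 were called higher and 2 lower.

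None of the other methyltransferases *KMT2B*, *SETD1A* and *SETD1B* was called, with log2 fold changes of 0.02, 0.14 and 0.15 (edgeR adjusted p = 0.848, 0.112 and 0.0912). DESeq2 and limma-voom also called 0, while *SETD1A* and *SETD1B*, 2 of the 3, had an unadjusted edgeR p under 0.05. Both were called higher with library size scaling and when GC content was removed. Of 11 partners of the KMT2 enzymes, 1 was called higher and 0 lower. This was *NCOA6*, a subunit specific to the MLL3 and MLL4 complexes, at 151 to 161 CPM in control and 182 to 209 CPM in DAPT libraries (log2 fold change 0.30, SE 0.06, edgeR adjusted p = 0.000249). With length and GC content removed 3 partners were called higher, and without control replicate 1 there was 1 called lower.

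The PRC2 partners of *EZH2* gave 1 higher and 2 lower calls among 10, with a median of -0.09. The core subunits *EED* and *SUZ12* were not called (log2 fold changes -0.20 and -0.06, edgeR adjusted p = 0.0933 and 0.473), nor was *EZH1* (0.14, edgeR adjusted p = 0.19). The histone-binding subunits *RBBP4* and *RBBP7* were lower at -0.16 and -0.13, and the accessory subunit *PHF1* was higher at 0.23. These calls depended on the choice of libraries. *RBBP4* was not called without DAPT replicate 1 or 3 and *PHF1* not without control replicate 3 or DAPT replicate 2, *RBBP7* was called in none of the fits with a library left out other than that without control replicate 1, *EED* was called lower without control replicate 2 or DAPT replicate 3, and *EZH1* was called higher without control replicate 1 (edgeR adjusted p = 0.0386).

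Of 7 other genes of DNA methylation, 2 were called lower and 2 higher. *UHRF1*, which brings DNMT1 to replicated DNA and is also in the S phase list, was at 54.9, 60.6 and 68.5 CPM in control and 41.5, 36.0 and 36.0 CPM in DAPT libraries (log2 fold change -0.69, SE 0.08, edgeR adjusted p = 1.55e-06). The de novo methyltransferase *DNMT3B* was lower at -0.33 (SE 0.08, edgeR adjusted p = 0.00332), with 23.4 to 25.0 CPM in control and 18.2 to 20.6 CPM in DAPT libraries. The other de novo enzyme, *DNMT3A*, was at 0.18 and was not called (edgeR adjusted p = 0.107). *TET2* and *TET3*, which oxidise methylcytosine, were called higher at 0.25 and 0.16. *TET2* lost its call without control replicate 3 or DAPT replicate 3, and *TET3* without control replicate 1, DAPT replicate 1 or DAPT replicate 3.

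Most of the enzymes that remove these marks did not pass the test. Of 11 histone deacetylases 1 was called higher, *HDAC9* at 0.40 (SE 0.05, edgeR adjusted p = 7.37e-06), and 2 were called lower, *HDAC2* at -0.28 and *HDAC1* at -0.22. Of 7 demethylases of histone H3 lysine 4 and lysine 27, *KDM1A* was lower at -0.23, and *KDM5A* and *KDM5C* were higher at 0.16 and 0.13. The *KDM5A* and *KDM5C* calls were both lost without control replicate 2, control replicate 3 or DAPT replicate 2, and that of *KDM5C* also without DAPT replicate 1 or 3.

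Of 9 genes of proteins that bind acetylated lysine, 6 were called higher and 0 lower, with a median of 0.27, where 17.2% of all tested genes were called higher and 18.0% lower. The difference from other lists was not tested. *BRD2* was at 262, 282 and 294 CPM in control and 385, 356 and 344 CPM in DAPT libraries (log2 fold change 0.37, SE 0.05, edgeR adjusted p = 1.51e-05). *BAZ2B* and *BPTF*, subunits of nucleosome remodelling complexes, were higher at 0.31 and 0.29. *CECR2* had the largest log2 fold change, 0.79, at a low level of 1.31 to 1.44 CPM in control and 1.88 to 2.78 CPM in DAPT libraries, and its call was lost without DAPT replicate 2 or 3.

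Of 11 genes of Notch receptors and of the coactivators and corepressors that act with RBPJ, 2 were called higher and 1 lower. *NCOR1*, which encodes a corepressor, was higher at 0.31 (SE 0.05, edgeR adjusted p = 6.22e-05). *MAML1*, whose product contacts p300, was higher at 0.17 (SE 0.06, edgeR adjusted p = 0.0228), a call lost without control replicate 2, control replicate 3, DAPT replicate 1 or DAPT replicate 2. The receptor gene *NOTCH3* was lower at -0.78. Without control replicate 1 the counts were 3 higher and 3 lower.

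**Figure D5:**
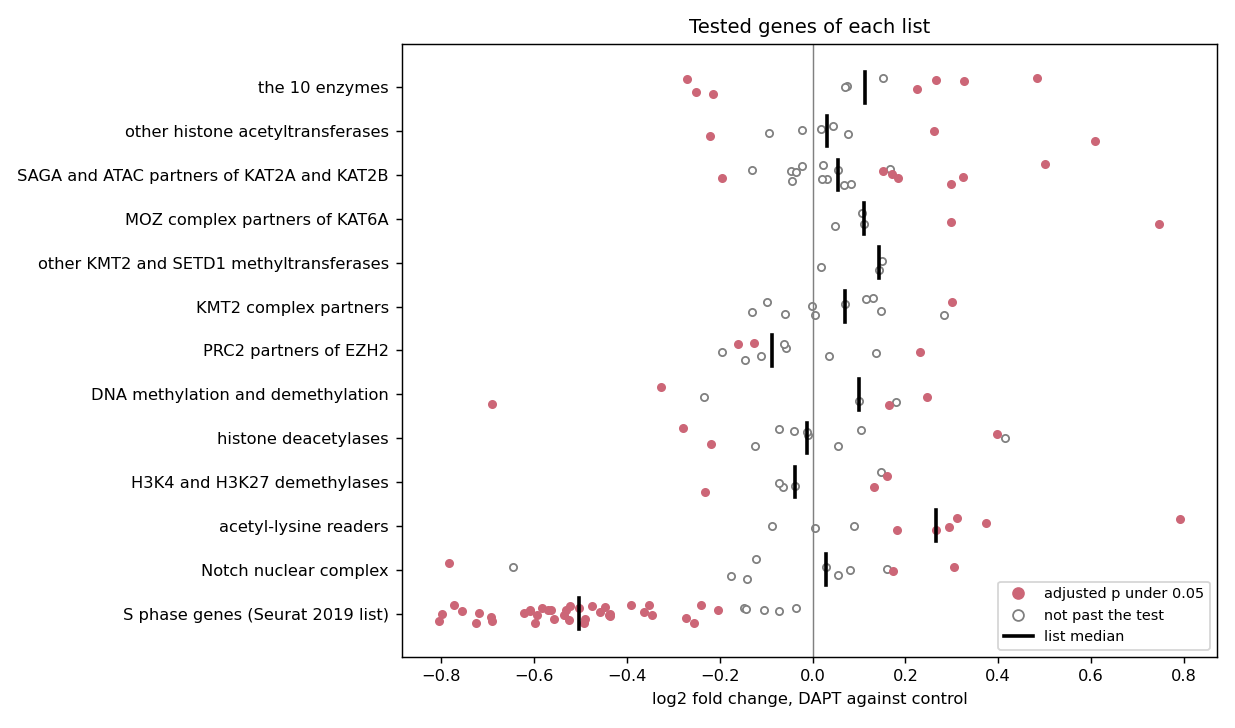
Log2 fold change (x axis) of each tested gene of the 10 enzymes and of 12 companion lists, filled where the edgeR adjusted p is under 0.05, with a black bar at each list's median. The acetyl-lysine readers have the highest median, 0.27, and the S phase genes the lowest, -0.50.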

How the data were processed

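HSC-4 mRNA libraries (3 control, 3 DAPT) were sequenced as single-end reads. The authors used Trim Galore for trimming and HISAT2 for mapping to GRCh38, counted reads on the exons of Ensembl release 96 genes on the sense strand with featureCounts 1.6.3, and deposited these raw read counts per gene without normalization. Reads with more than 1 mapping position, or lying in more than 1 gene, were left out under featureCounts' default settings. Groups and replicate numbers came from the sample labels.

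Symbols were taken by identifier from GENCODE release 44 for 58472 of 58884 genes, exonic length from the count tables, and GC content from the genome sequence of the same build at the exons of the count tables (58825 genes). Genes passed edgeR's filter by group (minimum count 10), and edgeR 4.0.16 in R 4.3.3 was used with TMM factors (0.980 to 1.02), a robust quasi-likelihood fit, its F test and p-values adjusted by Benjamini-Hochberg over 15001 genes, after the study's use of edgeR. Standard errors were derived from the test statistic. Depths of 12276313 to 16317672 counts limit the precision of low genes, and the floor of 3 reads covers counting error only. Offsets for exonic length, GC content or genomic span were splines of 5 degrees of freedom fitted per library, of which those for GC content alone, for genomic span and for length and GC content with the replicate block were chosen after seeing the data. Further alternatives were RLE, upper quartile and library size scaling, no filter, at least 10 counts in every library, DESeq2 1.42.0, limma-voom 3.58.1, an adjusted p under 0.01, the replicate block and each library left out. Read ratios were tested with exact permutation tests. The fits were tested on simulated data.

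Named genes are the 10 enzymes, *HES1*, *HEY1*, *HES2*, up to 4 called genes with the largest change per list, and *KAT6B*, *KMT2B*, *EZH1*, *SUZ12*, *EED*, *DNMT3A*, *DNMT3B*, *UHRF1* and *PCNA*. Cell type markers and genes that overlap an enzyme are named as checks. A gene that this rule names is not reported here. *SETD1A*, *SETD1B* and *ATXN7* were named after their values were seen. The enzymes and all lists were chosen with earlier results of these data known. The S phase list is that of the Seurat package, and the other lists were written from general knowledge.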

Additional observations from a re-analysis of the deposited data

How the results depend on the processing

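*CREBBP*, *EP300*, *KMT2D*, *EZH2*, *DNMT1*, *KMT2A* and *KMT2C* kept their direction and their side of the threshold in all 21 alternatives, and the 10 enzymes gave 6 to 8 calls. The log2 fold change ranged from 0.43 to 0.54 for *CREBBP*, 0.30 to 0.37 for *EP300*, 0.23 to 0.34 for *KMT2D*, -0.27 to -0.20 for *EZH2* and -0.31 to -0.21 for *DNMT1*. *KAT2B* lost its call in 7 alternatives, among them no filter (edgeR adjusted p = 0.0521) and the stricter threshold, *KAT2A* in 1, and *KAT6A* gained a call in 3. An adjusted p under 0.01 left 3338 genes called, 1516 of them higher, and 14 genes of the lists higher in place of 25. DESeq2 called 1646 genes higher. The difference between the median log2 fold changes of the bins with the longest and shortest exons (0.13) ranged from 0.0892 without control replicate 2 to 0.169 without control replicate 1 or DAPT replicate 2. The cause of these shifts was not tested. Leaving out 1 library gave 4174 to 5618 called genes. Counts of small lists also moved with other settings than the libraries. The PRC2 partners called lower were 0 with library size scaling and 4 with length and GC content removed, in place of 2. DESeq2 called 0 higher among the genes of DNA methylation and among the demethylases, in place of 2 each, and library size scaling called 4 Notch genes higher in place of 2.

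Same-numbered libraries did not deviate together (correlations of 0.0177, 0.0591 and -0.0224 over 13547 genes), so the numbers were not taken to pair the cultures. The replicate block gave 5295 calls against 5281 and changed no call of the 10 enzymes. Within replicate numbers the read ratios kept their differences (exact permutation p = 0.25, and 0.75 for *KAT6A* to *KAT6B*). Depth limits precision most for *KAT2B*, which had 262 reads in its shallowest library.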
